A study of Oryza sativa with 21 samples.

Results

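Rice lines OE-2 and OE-4 both overexpress NRP1, the gene that the study's title calls a negative regulator of photosynthesis. They were compared here with each other, over 3 OE-2 libraries and 3 OE-4 libraries of the 21 libraries in the series, and over the 21044 of 91080 gene identifiers that passed a filter on low counts. RNA came from the second leaf from the top of field-grown plants at the heading stage, harvested in the morning. The other lines were the third overexpression line, OE-3, 3 CRISPR/Cas9 knockout lines (C-13, C-14, C-16), and the wild type (WT). The sources used here do not give the promoter of the transgene, its insertion sites or the number of plants behind a library. The labels leave unsaid whether the 3 libraries of a line are separate plants, and a p-value therefore covers the spread among libraries, which may be technical.

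A transgene drives the same coding sequence in each overexpression line, but lines differ in where it is inserted, in its copy number and in changes that plants may acquire in tissue culture. A comparison of sister lines therefore shows which transcripts differ between plants that carry the same construct. In a leaf, the most abundant transcripts encode the light-harvesting antenna, the photosystems and the enzymes of carbon fixation, starch and sucrose. Rice also makes diterpenoid phytoalexins, antimicrobial compounds whose genes sit in clusters on chromosomes 2 and 4.

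Total counts ran from 13788243 to 17282439 in OE-2 libraries and from 14380167 to 18677096 in OE-4 libraries. A principal component analysis of these 6 libraries placed the lines apart on component 1, which held 45% of the variance, with scores of -33.73 to -20.62 for OE-2 and 22.8 to 27.24 for OE-4. Component 2 held 22.9% and its ends were both OE-2 libraries, replicate 1 at 32.39 and replicate 2 at -23.15. Gene symbols below were paired with loci from general knowledge, because the RefSeq gene table could be matched to just 1 of the counted identifiers, and each symbol stands for the locus printed beside it.

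NRP1 (OS07G0471900, chromosome 7) was highly expressed in both lines. Its level was 273, 313 and 277 CPM (counts scaled to a common library size) in OE-2 libraries, against 380, 326 and 329 CPM in OE-4 libraries. Each OE-2 library was below each OE-4 library. The means were 288 ± 21.6 CPM in OE-2 and 345 ± 30.3 CPM in OE-4 (SD, n = 3 each), set beside 365 ± 28.9 CPM in OE-3 and 2.46 ± 0.53 CPM in WT. The log2 fold change of OE-2 over OE-4 was -0.26 (SE 0.12, 95% interval -0.51 to -0.01). This did not pass the test across all genes (edgeR adjusted p = 0.303), so a difference in NRP1 between the lines was not called.

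Most genes called between the lines were lower in OE-2. Of 21044 genes, 252 were called (edgeR's quasi-likelihood test with Benjamini-Hochberg adjustment at 0.05), a share of 1.20%. Among them 44 were higher in OE-2 (0.209% of genes tested) and 208 were lower in OE-2 (0.988%). The median log2 fold change was 0.97 for the higher genes and -1.70 for the lower genes, against 0.02 for all genes tested. At least a doubling or halving, an absolute log2 fold change of 1, was reached by 22 of the higher and 164 of the lower genes. All 44 higher genes and 205 of the 208 lower genes had libraries that did not overlap between the lines, while over all genes tested 13.1% did not overlap with OE-2 higher and 14.5% with OE-2 lower. The calls rest on these same libraries, so this separation gives them no further support. Of the called genes 34.1% stayed below 5 CPM in the line where they were higher, against 35.3% of all genes tested.

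The number of calls moved with single libraries, while the excess of lower genes was present in each of these fits. It was 143, 135 and 151 without OE-2 replicates 1, 2 and 3, and 153, 157 and 149 without OE-4 replicates 1, 2 and 3. The share of calls that were lower in OE-2 was 82.5% with all libraries and 72.6% without OE-2 replicate 2. The fit took its spread from all 7 lines, and leaving out OE-3 replicate 1 gave 781 calls and leaving out OE-3 replicate 2 gave 467. All 252 genes were among the calls of both of these fits.

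**Figure D1:**
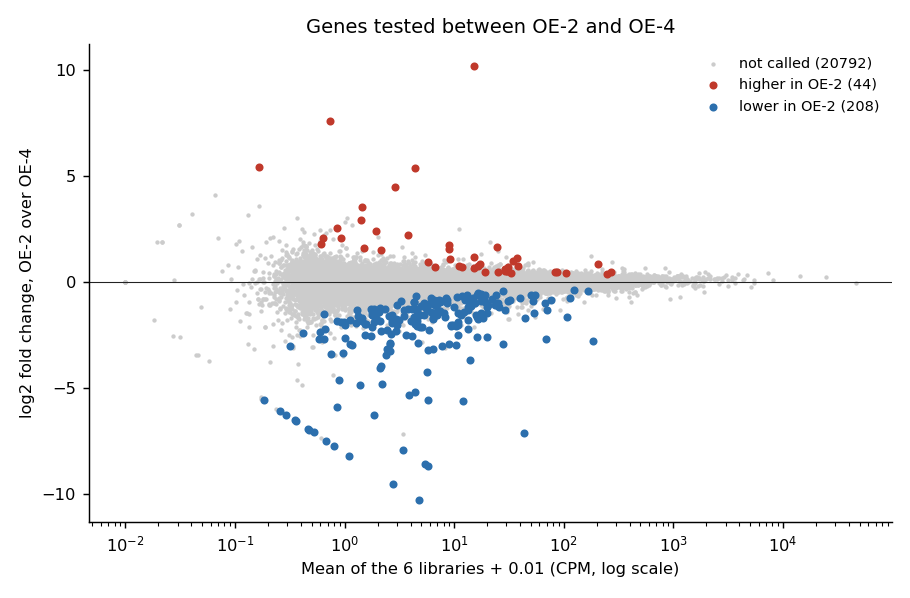
Log2 fold change of OE-2 over OE-4 (vertical axis) against the mean level of the 6 libraries in CPM on a log axis (horizontal), 1 point per gene tested. The 208 genes called lower in OE-2 (blue) outnumber the 44 called higher (red), and both span the range of levels, while the most abundant genes lie close to 0.

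Among genes with a known name, AGPS1 and CPS2 were the only called members of the 28 gene lists, 2 of 298 members tested which is a smaller share than the 1.20% called over all genes tested. AGPS1 (OS09G0298200, chromosome 9) encodes a small subunit of ADP-glucose pyrophosphorylase, which makes the glucose donor for starch. Its level was 5.63, 6.31 and 6.92 CPM in OE-2, against 1.73, 1.63 and 0.65 CPM in OE-4, with every OE-2 library above every OE-4 library. It was 4.6-fold higher in OE-2 (log2 fold change 2.20, SE 0.32, edgeR adjusted p = 0.000666). OE-3, at 0.97 ± 0.31 CPM, and WT, at 1.33 ± 0.44 CPM (SD, n = 3 each), stood with OE-4.

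A large subunit gene of the same enzyme, AGPL1 (OS05G0580000, chromosome 5), was far more abundant. Its level was 271, 216 and 250 CPM in OE-2, against 151, 107 and 58.5 CPM in OE-4. The libraries did not overlap, but the log2 fold change of 1.21 (SE 0.32) missed the threshold (edgeR adjusted p = 0.0685). Without OE-4 replicate 1, the highest library of that line, AGPL1 passed with a log2 fold change of 1.56 (edgeR adjusted p = 0.0387), and without OE-3 replicate 1 with 1.21 (edgeR adjusted p = 0.0276). The other subunit genes tested had estimates near 0. These were AGPS2 (OS08G0345800), at 74.9 ± 8.71 CPM in OE-2 and 75.4 ± 3.95 CPM in OE-4, AGPL2 (OS01G0633100), with a log2 fold change of -0.11, and AGPL3 (OS03G0735000), with -0.08. GBSSII (OS07G0412100), the granule-bound starch synthase of leaves, averaged 2250 ± 166 CPM in OE-2 and 1650 ± 232 CPM in OE-4 (SD, n = 3 each; log2 fold change 0.45, edgeR adjusted p = 0.253). SUT4 (OS02G0827200), a sucrose transporter gene, averaged 18.3 ± 1.01 CPM in OE-2 and 23.3 ± 1.59 CPM in OE-4 (log2 fold change -0.35, edgeR adjusted p = 0.0865). Over the whole sucrose and starch list 1 of 24 members tested was called higher in OE-2 and 0 were called lower. Of the 24 estimates 10 were above 0, and the median log2 fold change was -0.05 (0.05 without OE-4 replicate 1).

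CPS2 (OS02G0571100, chromosome 2) encodes an ent-copalyl diphosphate synthase, the first enzyme of the branch that leads to phytocassanes. Its level was 3.16, 7.99 and 8.97 CPM in OE-2, against 16.4, 18.1 and 19.6 CPM in OE-4. The lines did not overlap, and CPS2 was lower in OE-2 (log2 fold change -1.41, SE 0.27, edgeR adjusted p = 0.0089). OE-3 held 16.8 ± 1.38 CPM and WT 18.8 ± 3.11 CPM (SD, n = 3 each), and the CRISPR lines averaged 23.4 to 35.1 CPM, so OE-2 had the lowest level of the 7 lines.

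The other tested genes of diterpenoid phytoalexin synthesis also had lower estimates in OE-2, although only CPS2 passed the test. Of 16 members 9 were tested, 0 were called higher, 1 was called lower, and 9 of 9 estimates were below 0 with a median log2 fold change of -0.65. With each OE library left out in turn 11 or 12 members passed the filter, and the median was -1.11 to -0.79. CYP99A3 (OS04G0178400), a cytochrome P450 gene of the chromosome 4 cluster for momilactones, averaged 2.73 ± 0.61 CPM in OE-2 and 5.37 ± 1.40 CPM in OE-4 (SD, n = 3 each; log2 fold change -0.96, edgeR adjusted p = 0.122). CPS4 (OS04G0178300), which opens the momilactone branch, averaged 7.70 ± 1.31 CPM in OE-2 and 10.2 ± 1.83 CPM in OE-4 (log2 fold change -0.40, edgeR adjusted p = 0.716). Members with under 1 CPM, such as KSL10 (OS12G0491800), carried standard errors as large as 1.60 on the log2 scale.

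The neighbours of CPS2 were examined after these values had been seen, so what follows is a description without a test of the region. The stretch from the locus listed as CYP76M5 (OS02G0569000) to the one listed as CYP76M6 (OS02G0571900) holds 15 identifiers, of which 9 were tested, 3 were called lower and 0 higher. The 3 were CPS2, the locus just before it and the second locus after it, both without a name in the tables used here. Of the 9 estimates 8 were lower in OE-2, with a median log2 fold change of -1.42. The summed level of the 15 identifiers was 8.93, 13.9 and 17.0 CPM in OE-2, against 28.0, 32.6 and 35.7 CPM in OE-4. OE-2 was below every library of the other lines, which began at 25 CPM in OE-3 and 31.8 CPM in WT. Much of this sum was CPS2 itself, with 332 of 650 reads in OE-2 and 967 of 1715 reads in OE-4. KSL7 (OS02G0570400), a terpene synthase gene in the same stretch, did not share the low level, with 47 reads in OE-2 and 60 reads in OE-4 over 3 libraries each. Nor did OS02G0569900, with 28 and 30 reads. Among untested loci with reads, CYP71Z7 had 8 and 7 and CYP76M6 had 9 and 1. The untested CYP76M8 had 6 and 16 reads and CYP71Z6 had 6 and 24.

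**Figure D2:**
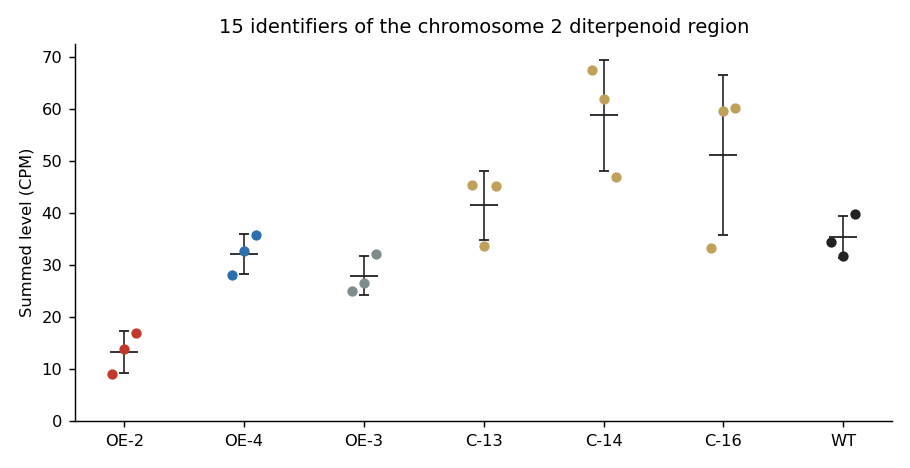
Summed CPM of the 15 identifiers of the chromosome 2 diterpenoid region in each library (points) by line, with the mean and SD of 3 libraries. OE-2 lies lowest, at 8.93 to 17.0 CPM, against 28.0 to 35.7 CPM in OE-4.

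Among defence regulators no gene was called, while the largest estimates belonged to a set of WRKY transcription factors that vary widely between libraries of OE-4, WT and C-16. WRKY45 (OS05G0322900), a salicylate-pathway regulator of blast resistance, was at 26.3, 26.3 and 27.3 CPM in OE-2, against 36.4, 91.1 and 123 CPM in OE-4. WRKY62 (OS09G0417800), described as a repressor of basal defence, was at 2.41, 0.90 and 0.56 CPM in OE-2, against 3.91, 8.41 and 14.6 CPM in OE-4. WRKY76 (OS09G0417600), a related factor on chromosome 9, was at 7.28, 6.87 and 2.43 CPM in OE-2, against 10.7, 26.9 and 35.9 CPM in OE-4. In all 3 genes every OE-2 library was below every OE-4 library, and OE-4 replicate 1 was the OE-4 library nearest to OE-2. These 3 had the smallest p in their list. Of its 20 tested members 4 did not overlap with OE-2 lower and 0 with OE-2 higher, while over all genes tested the shares were 14.5% and 13.1%. The log2 fold changes were -1.65 for WRKY45 (edgeR adjusted p = 0.159), -2.81 for WRKY62 (0.113) and -2.14 for WRKY76 (0.186). Other lines varied as well, with WRKY45 at 183, 35.1 and 65.2 CPM in WT and 18.6, 110 and 75.1 CPM in C-16. WRKY62 was at 25.3, 2.79 and 5.92 CPM in WT. A fit of only the 6 libraries of OE-2 and OE-4 leaves this spread out. In that fit all 3 genes passed, with edgeR adjusted p = 0.0294 for WRKY45, 0.0229 for WRKY62 and 0.0316 for WRKY76. Of 20 members tested in the list of WRKY factors and salicylate regulators, 15 estimates were below 0 and the median was -0.22. That median depended on single libraries, at -0.43 without OE-2 replicate 1, -0.14 without OE-2 replicate 2, -0.10 without OE-4 replicate 1 and -0.34 without OE-4 replicate 2. EDS1 (OS09G0392100) and NH1 (OS01G0194300), other parts of salicylate signalling, had log2 fold changes of 0.04 for both. NPR3 (OS03G0667100), of the same list, was at 4.47, 7.26 and 5.67 CPM in OE-2, against 5.98, 14.1 and 19.4 CPM in OE-4. Its libraries overlapped (log2 fold change -1.16, edgeR adjusted p = 0.23).

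Pathogenesis-related and jasmonate genes gave no call either. PBZ1 (OS12G0555500), a PR10 family gene, was at 110, 68.0 and 97.9 CPM in OE-2, against 152, 141 and 128 CPM in OE-4 (log2 fold change -0.61, edgeR adjusted p = 0.116). The chitinase gene CHT1 (OS06G0726200) had its estimate on the other side, at 25.2, 15.9 and 16.2 CPM in OE-2, against 13.7, 10.6 and 11.5 CPM in OE-4 (log2 fold change 0.67, edgeR adjusted p = 0.469). Jasmonate genes had 14 of 18 estimates below 0 and a median of -0.20. The median was -0.01 without OE-4 replicate 3 and -0.37 without OE-4 replicate 2. JAMYB (OS11G0684000), a jasmonate-responsive MYB factor, had a log2 fold change of -0.93 (edgeR adjusted p = 0.116). TIFY10a (OS03G0402800) and TIFY11c (OS03G0180900), JAZ-type repressors, took their difference largely from OE-4 replicate 3, where they stood at 135 and 4.69 CPM. The other OE-4 libraries held 72.8 and 61.6 CPM of TIFY10a and 0.94 and 0.38 CPM of TIFY11c. Without OE-4 replicate 3 the estimate for TIFY11c was 0.01.

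Photosynthesis genes were slightly higher in OE-2 by estimate, and none was called. Across the antenna, photosystem, electron carrier and Calvin-Benson lists 45 loci were tested, 41 estimates were above 0 and the median log2 fold change was 0.21, against 0.02 for all genes tested. Libraries did not overlap for 21 of the 45 with OE-2 higher and for 1 with OE-2 lower, while over all genes tested the shares were 13.1% and 14.5%. Without OE-2 replicate 2 the antenna median was 0.14, against 0.21 with all libraries, and the photosystem median 0.14, against 0.25. The summed level of the 45 loci was 113000, 135000 and 121000 CPM in OE-2, against 105000, 111000 and 121000 CPM in OE-4, so the lines overlapped in the sum. OE-3 lay above both, at 143000 to 171000 CPM, and WT spanned 115000 to 153000 CPM.

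PsbS2 (OS04G0690800) came nearest to the threshold. PsbS proteins trigger the dissipation of excess light energy as heat. Its level was 1270, 774 and 1000 CPM in OE-2, against 709, 713 and 522 CPM in OE-4 (log2 fold change 0.65, SE 0.17, edgeR adjusted p = 0.0656). It passed without OE-2 replicate 2 (edgeR adjusted p = 0.0263), without OE-3 replicate 1 (edgeR adjusted p = 0.0411) and with the DESeq2 Wald test (adjusted p = 0.0158). The antenna gene CAB1R (OS09G0346500) was at 8640, 8070 and 8230 CPM in OE-2, against 6150, 5950 and 6280 CPM in OE-4. That gap is wide beside the spread within each line, yet with the spread of 7 lines the edgeR adjusted p was 0.185 (log2 fold change 0.44, SE 0.16). RBCS2 (OS12G0274700), a small subunit gene of Rubisco with close paralogs, was at 432, 428 and 387 CPM in OE-2, against 279, 281 and 238 CPM in OE-4 (log2 fold change 0.64, edgeR adjusted p = 0.217). With only the 6 libraries in the fit CAB1R passed (adjusted p = 0.0141) and so did RBCS2 (adjusted p = 0.00558).

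PRK (OS02G0698000), the phosphoribulokinase of the Calvin-Benson cycle, was the 1 photosynthesis gene whose libraries did not overlap with OE-2 lower. It was at 1320, 1400 and 1510 CPM in OE-2, against 1660, 1730 and 1780 CPM in OE-4 (log2 fold change -0.29, edgeR adjusted p = 0.247). The chlorophyll biosynthesis list had 11 of 13 estimates above 0, a median of 0.26 and no call. The median was 0.11 without OE-2 replicate 2 and 0.13 without OE-4 replicate 1. GUN4 (OS11G0267000), a regulator of the magnesium branch, was at 140, 159 and 138 CPM in OE-2, against 107, 117 and 116 CPM in OE-4 (log2 fold change 0.36, edgeR adjusted p = 0.392). Photorespiration and carotenoid synthesis genes had medians of 0.07 and 0.06, and the senescence-linked chlorophyll breakdown list had -0.02, which was 0.09 without OE-2 replicate 2.

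**Figure D3:**
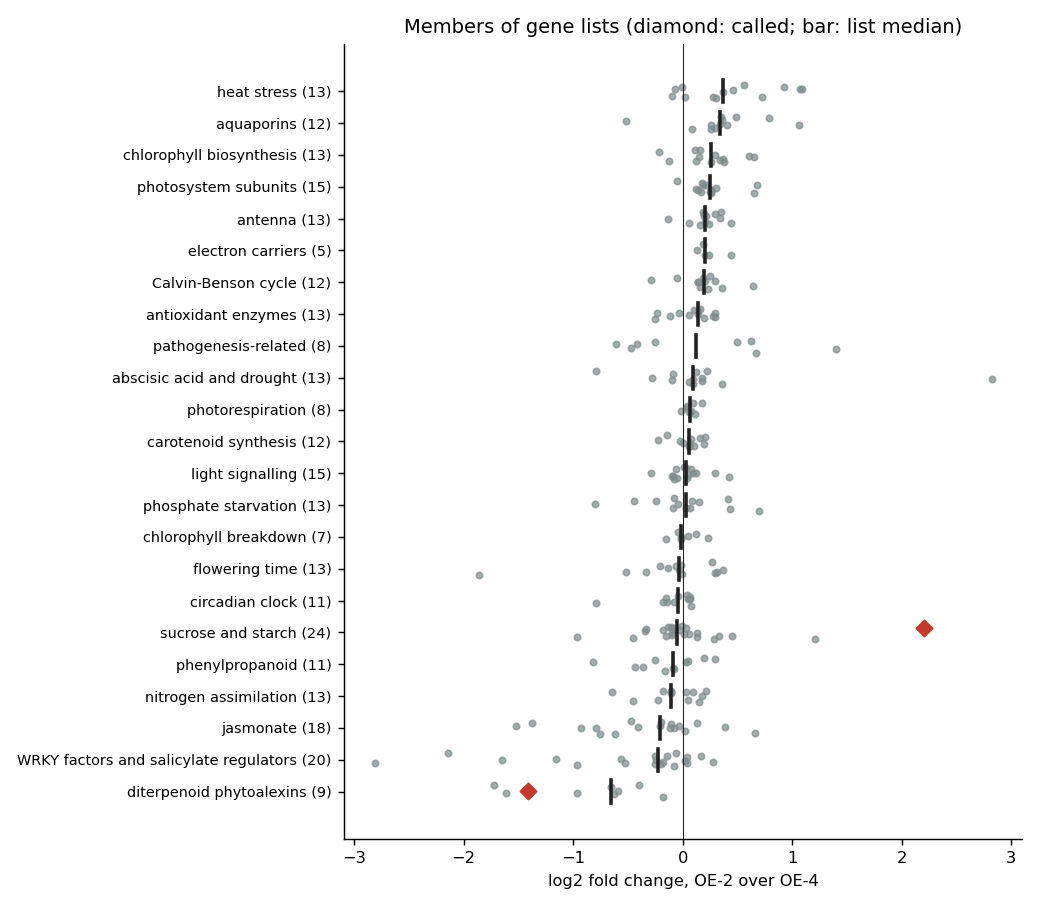
Log2 fold change of OE-2 over OE-4 (horizontal axis) for each tested member (points) of the 23 gene lists with at least 5 tested members, ordered by list median (black bar); numbers in brackets count the members tested. With all libraries heat stress and aquaporins have the highest medians and diterpenoid phytoalexins the lowest, but the heat stress median is 0.04 without OE-2 replicate 1; AGPS1 and CPS2 are the only called members (red diamonds).

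Heat stress genes had 10 of 13 estimates above 0, a median of 0.37 and no call, and the median rested on single libraries. It was 0.04 without OE-2 replicate 1, below the aquaporin median of 0.30 in the same fit, and 0.57 without OE-2 replicate 2. Without OE-4 replicates 1 and 2, each in turn, it was 0.25 and 0.65. HSFB2b (OS08G0546800), a heat shock factor of class B, was at 13.6, 8.33 and 11.3 CPM in OE-2, against 6.77, 5.64 and 4.95 CPM in OE-4 (log2 fold change 0.93, edgeR adjusted p = 0.0541). The co-activator gene MBF1c (OS06G0592500) was at 20, 6.31 and 12 CPM in OE-2, against 6.23, 7.38 and 4.23 CPM in OE-4 (log2 fold change 1.09, edgeR adjusted p = 0.0969). In both genes OE-2 replicate 1 was the highest library and OE-2 replicate 2 the lowest of that line. Without OE-2 replicate 2 edgeR called HSFB2b (adjusted p = 0.0381), MBF1c (0.0146) and HSFB2c (OS09G0526600, 0.0466). HSP101 (OS05G0519700), the disaggregase of acquired heat tolerance, averaged 13.9 ± 8.77 CPM in OE-2 and 13.7 ± 3.53 CPM in OE-4 (SD, n = 3 each).

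Aquaporins, the water channels of plasma membrane (PIP) and vacuole (TIP), had 11 of 12 estimates above 0, a median of 0.34 and no call, with medians of 0.30 to 0.40 when each OE library was left out in turn. PIP2;7 (OS09G0541000) was at 76.6, 43.3 and 47.7 CPM in OE-2, against 34.3, 28.6 and 34.2 CPM in OE-4 (log2 fold change 0.79, edgeR adjusted p = 0.139). TIP2;2 (OS06G0336200) was at 176, 172 and 164 CPM in OE-2, against 131, 139 and 132 CPM in OE-4 (log2 fold change 0.35, edgeR adjusted p = 0.255). PIP1;1 (OS02G0666200), the most abundant of them in both lines, averaged 1350 ± 15.2 CPM in OE-2 and 1280 ± 62.9 CPM in OE-4 (log2 fold change 0.08). The summed level was 5420, 4360 and 4860 CPM in OE-2, against 4260, 4000 and 4200 CPM in OE-4, which did not overlap.

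Nutrient genes, clock genes and flowering genes gave no call. GS1;2 (OS03G0223400), a cytosolic glutamine synthetase gene, was at 72.8, 81.2 and 85.0 CPM in OE-2, against 125, 96.4 and 105 CPM in OE-4 (log2 fold change -0.45, edgeR adjusted p = 0.122). PT1 (OS03G0150600), a phosphate transporter gene, was at 39.2, 24.9 and 30.5 CPM in OE-2, against 52.2, 58.7 and 53.8 CPM in OE-4 (log2 fold change -0.80, edgeR adjusted p = 0.291). Both lines kept their libraries apart in these genes, with OE-2 lower. In the nitrogen assimilation list 2 of 13 tested members did not overlap with OE-2 higher and 2 with OE-2 lower. In the phosphate starvation list 0 and 3 of 13 did so. Over all genes tested the shares were 13.1% and 14.5%. SPX1 (OS06G0603600), of the phosphate list, had its estimate on the other side, with overlapping libraries (log2 fold change 0.70, edgeR adjusted p = 0.223). The morning clock gene LHY (OS08G0157600) was at 2940, 3090 and 2880 CPM in OE-2, against 3310, 3280 and 3530 CPM in OE-4 (log2 fold change -0.18, edgeR adjusted p = 0.362). The clock list had a median of -0.05, the flowering list -0.03 and the light signalling list 0.03. MADS14 (OS03G0752800), a flowering activator of the APETALA1 group, was at 113, 131 and 119 CPM in OE-2, against 146, 155 and 158 CPM in OE-4 (log2 fold change -0.33, edgeR adjusted p = 0.251). MADS50 (OS03G0122600), of the same list, lay the other way, at 13.1, 12.2 and 14.7 CPM in OE-2, against 10.9, 9.93 and 11.3 CPM in OE-4 (log2 fold change 0.31, edgeR adjusted p = 0.233). Of 13 flowering members tested, 2 did not overlap with OE-2 higher and 2 with OE-2 lower. Ferritin genes, which store iron, showed 1 library apart. FER2 (OS12G0106000) was at 1140, 1430 and 1370 CPM in OE-2, against 2320, 830 and 646 CPM in OE-4. The near-identical FER1 (OS11G0106700) behaved the same way, and its reads may be shared with FER2.

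Few markers of other tissues could be tested. Of 7 such genes 4 were tested and none was called, and their mean summed level was 44.0 CPM in OE-2 and 50.8 CPM in OE-4. The only secondary wall gene tested, CESA4 (OS01G0750300), averaged just 0.42 CPM in OE-2 and 0.37 CPM in OE-4. The guard cell anion channel gene SLAC1 (OS04G0574700) was at 27.1, 26.5 and 24.2 CPM in OE-2, against 32.8, 29.1 and 28.7 CPM in OE-4 (log2 fold change -0.22, edgeR adjusted p = 0.475). Its libraries did not overlap between the lines. The panicle gene MADS1 (OS03G0215400) had a log2 fold change of -0.21. In bulk tissue fewer cells of a type and less RNA per cell cannot be told apart.

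Some of the largest differences were nearly on or off, in identifiers that the tables used here do not name. OS10G0328100, on chromosome 10, had 206, 927 and 389 reads in OE-2, against 1, 0 and 0 reads in OE-4. OE-3 and WT had 1 read each over 3 libraries, so it was detected at a level above that only in OE-2 among these 4 lines. From 1 read in OE-4 the ratio of OE-2 to OE-4 was 1700, with an exact 95% interval of 305 to 67200 that covers counting error only. OS08G0240200, on chromosome 8, was at 9.14, 8.61 and 8.16 CPM in OE-2, against 0.30, 0.16 and 0.13 CPM in OE-4 (log2 fold change 5.36, SE 0.34, edgeR adjusted p = 1.53e-08). It was higher still in the CRISPR lines, at 30.2 to 53.0 CPM per library, while OE-3 averaged 0.13 CPM and WT 0.21 CPM.

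In the other direction, OS03G0739500, on chromosome 3, had 0 reads in all 3 OE-2 libraries, against 171, 138 and 191 reads in OE-4. Set against a floor of 3 reads over a line, it was at least 149-fold lower in OE-2 (edgeR adjusted p = 7.2e-08). OE-3 averaged 12.8 CPM, C-16 averaged 4 CPM and WT 0.55 CPM, so neither presence nor absence followed the NRP1 genotype. OS10G0151100, on chromosome 10, also had 0 reads in OE-2, against 96, 118 and 82 reads in OE-4, and was at least 88.3-fold lower in OE-2 (edgeR adjusted p = 0.0136). In OE-3 it was at 2.41, 0 and 3.6 CPM, a spread that entered the fit. Its call was lost without OE-2 replicate 2 (edgeR adjusted p = 0.0588), without OE-2 replicate 3 (0.0536) and with the DESeq2 Wald test (0.272).

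**Figure D4:**
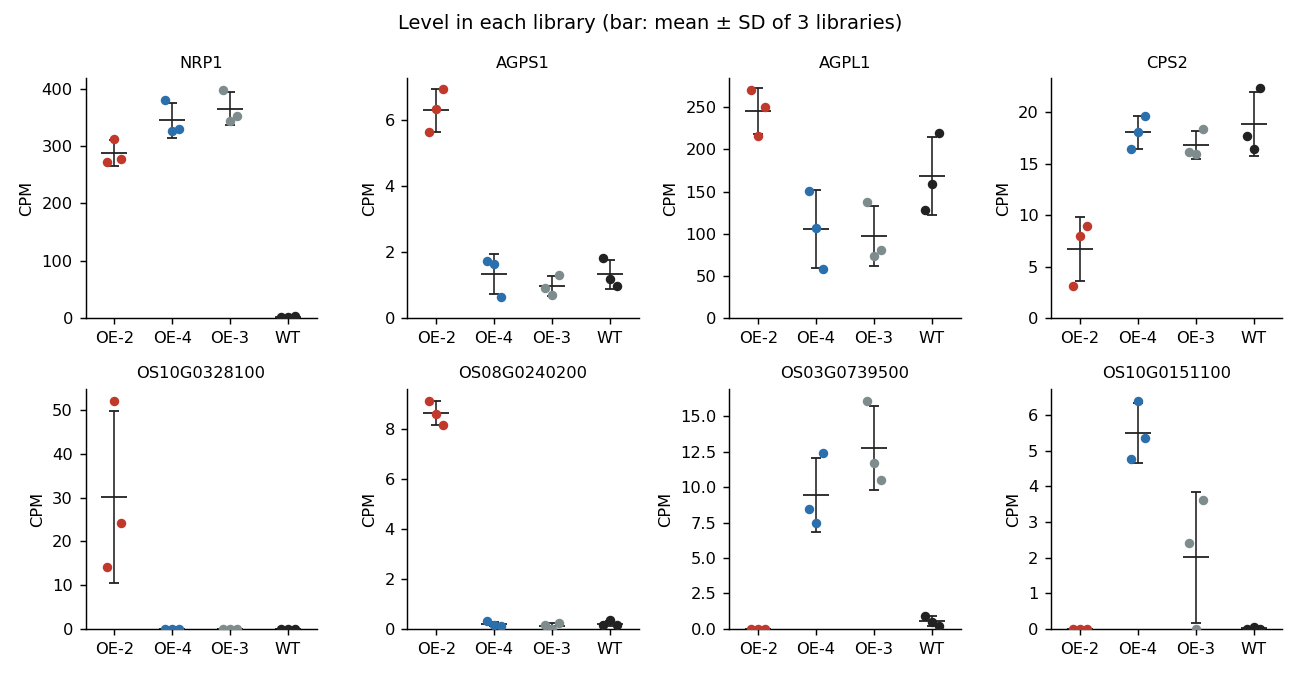
CPM in each library (points) of OE-2, OE-4, OE-3 and WT, with the mean and SD of 3 libraries, for NRP1, 3 listed genes and the 4 unnamed identifiers. OE-2 stands alone for AGPS1, CPS2 and OS10G0328100, while OS03G0739500 and OS10G0151100 have 0 reads in OE-2 and 7.49 to 12.4 and 4.75 to 6.40 CPM in OE-4.

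Such near-absent transcripts were counted after the values had been seen. Among the 208 lower genes, 20 had at most 3 reads over the 3 OE-2 libraries, and 13 of these had 0. In OE-4 the 20 stood at 0.345 to 11.5 CPM, with a median of 1.46 CPM. WT was at or below 3 reads in 17 of the 20 and OE-3 in 1, and 16 had WT at or below 3 reads with OE-3 above. Near absence in OE-2 and presence in OE-4 follow from how the 20 were picked. With so few reads in OE-2, they could pass the count filter only through other lines. The same shares over all genes tested were not counted. Only in 6 of the 17 were all 3 CRISPR lines at or below 3 reads as well. Among the 44 higher genes, 3 had at most 3 reads over the OE-4 libraries, and in all 3 both OE-3 and WT were at or below 3 reads as well.

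The lower genes did not share 1 pattern over the other lines. Each called gene was assigned, after the values had been seen, by whether the mean level of WT and of OE-3 lay nearer to that of OE-2 or of OE-4, on log2 of CPM plus 0.5. WT was nearer to OE-4 for 153 of the 208 lower genes (73.6%), and OE-3 was nearer to OE-2 for 137. C-13, C-14 and C-16 were nearer to OE-4 for 139, 135 and 111 of the 208. The same shares over all genes tested were not counted. Where WT and OE-3 lie within a pattern follows from the assignment itself. In the most common pattern, 128 genes, OE-2 and OE-3 were low while OE-4 and WT were high, with a median log2 fold change of -1.56. Another 46 genes had the reverse grouping, with OE-3 and OE-4 high and OE-2 and WT low, and their median log2 fold change was -3.65. In 25 genes OE-2 was low apart from both, as for CPS2, and in 9 OE-4 was high apart from both. Among the 44 higher genes, WT was nearer to OE-4 for 27 and OE-3 was nearer to OE-4 for 24.

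**Figure D5:**
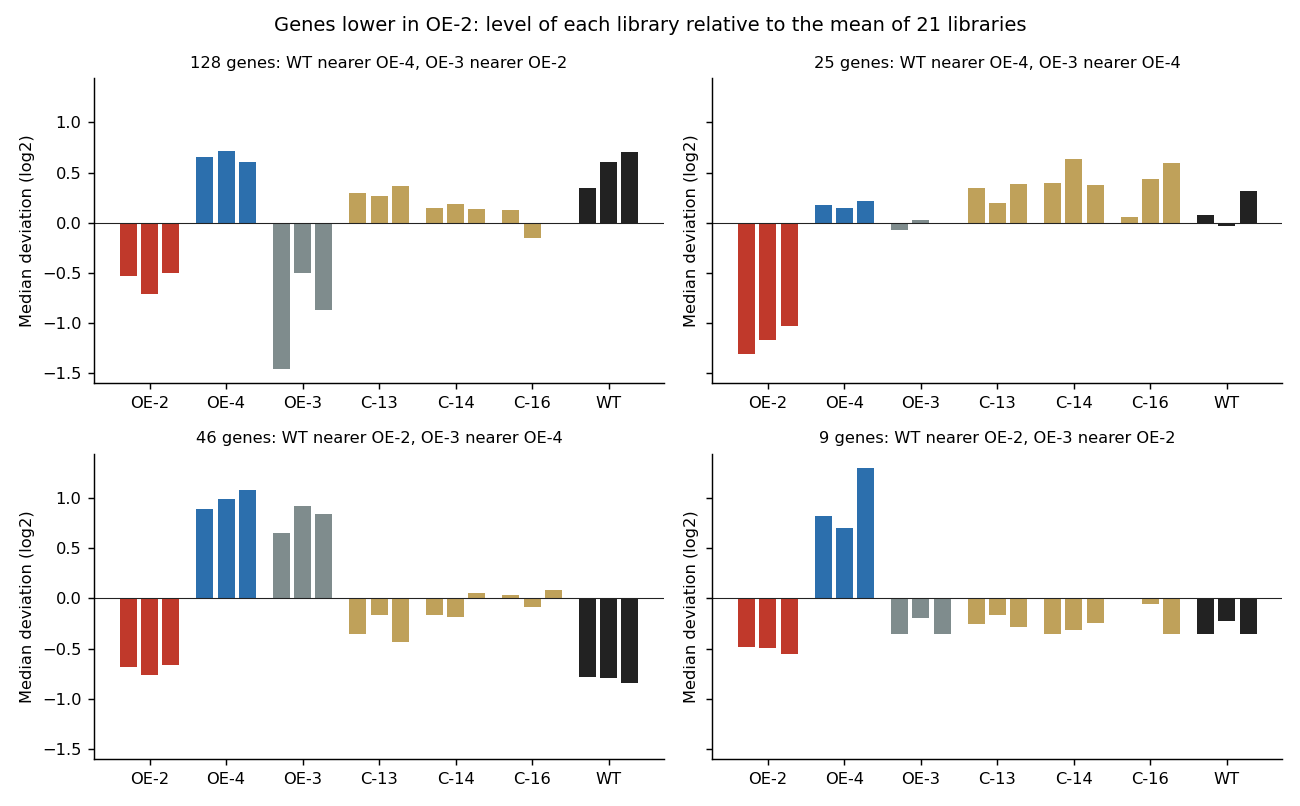
Median deviation of each library from the mean of all 21 libraries, on log2 of CPM plus 0.5 (vertical axis), for the 208 genes lower in OE-2 in 4 groups by which line WT and OE-3 are nearer to; each bar is 1 library. In the 128-gene group the 3 OE-2 libraries (-0.71 to -0.50) and the 3 OE-3 libraries (-1.46 to -0.50) are low and OE-4 (0.61 to 0.71) is high.

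Identifier classes were uneven among the calls. Identifiers whose number does not end in 00, interspersed in the regular numbering of rice loci, made up 21.2% of the lower genes (44 of 208), 6.82% of the higher genes (3 of 44) and 8.17% of all genes tested. In the 128-gene pattern they made up 27.3%. Identifiers with the prefix EPl made up 6.73% of the lower genes and 1.97% of all genes tested. The summed level of EPl identifiers was also lower in OE-2, at 1028 to 1135 CPM (here on unscaled library totals), against 1296 to 1363 CPM in OE-4. OE-3 held 703.8 to 1003 CPM, with replicate 1 lowest, and WT 1178 to 1403 CPM. The CRISPR lines held 1136 to 1279 CPM (C-13), 1114 to 1288 CPM (C-14) and 1087 to 1119 CPM (C-16). The part of these library-wide shares in the calls was not tested.

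Some lower genes lay side by side. With neighbours defined as called genes of the same direction within 3 steps among tested identifiers, 25 of 237 called genes with a chromosome position fell into 10 runs, all lower in OE-2. How many runs spacing alone would give was not tested. The 44 higher genes also leave less room for runs than the 208 lower genes. Of these runs 4 held at least 3 genes, 2 on chromosome 2, 1 on chromosome 3 and 1 on chromosome 11. One of the chromosome 2 runs is that of CPS2, and OS10G0151100 ends a run of 2 on chromosome 10. No strand setting is given for the counts, so overlapping genes in a run may share reads.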

How the data were processed

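The authors deposited raw read counts per gene identifier for 21 leaf libraries. Tools listed in the submitters' processing notes are STAR 2.5.3a, Trim Galore, FastQC and DESeq2, and the genome build is IRGSP-1.0. How reads were counted, and whether strand was used, is not given in the sources used here. Counts of near-identical or overlapping genes are therefore uncertain. Of 91080 identifiers, 56267 had 0 reads throughout.

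Genes were filtered by filterByExpr with the line as group, scaled by TMM and tested in edgeR 4.0.16 (R 4.3.3) with the quasi-likelihood test, in 1 model of 7 lines with 14 residual degrees of freedom. Benjamini-Hochberg adjustment ran over all genes tested, and "called" means an adjusted p under 0.05. SE was taken from the fold change and its F statistic (size of the log2 fold change over root F). CPM uses TMM-scaled library sizes and is not corrected for gene length. Intervals of log2 fold changes use this SE and so include the spread among libraries. Exact intervals of read ratios, and floors, cover counting error only. The procedure was tested on simulated counts. Their spread followed the level of a gene and no library stood apart, so that test does not cover outlying libraries.

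Members, lists and rules were chosen with earlier results of these data known. The 28 lists (347 members) were written from general knowledge; 8 members whose symbol or identifier conflicted with the gene tables were dropped and 2 loci reassigned after values had been printed. Of 347 symbols 192 were found in the RefSeq table (assembly ASM3414082v1), each on the chromosome of its locus. Lists by gene description and of cell division genes are not analysed here. Named genes were NRP1, called genes with non-overlapping libraries and at least 5 CPM in the higher line by size of change (12 listed and 2 unnamed each way at most), and up to 4 members per list by adjusted p; other members are named to complete an enzyme, list or pathway. Between replicates of OE-2 or of OE-4 the variance was 6 to 17.8 times that of Poisson counting. The alternatives were DESeq2 1.42.0 size factors and Wald test, other filters, fewer libraries, the replicate block and each OE library left out.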

Additional observations from a re-analysis of the deposited data

How the results depend on the processing

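Directions held for the counts of calls, with more lower than higher genes under every alternative run, while the numbers moved. Against 252 calls (44 higher and 208 lower in OE-2), no filter on low counts gave 545 (86 and 459), a mean of at least 5 CPM gave 129 (27 and 102), and the DESeq2 Wald test gave 561 (137 and 424). With only the 6 libraries compared there were 1041 calls (203 and 838), of which 237 were among the 252, and with only the 9 OE libraries 138 (25 and 113). A minimum absolute log2 fold change of 1 left 22 higher genes. Leaving out 1 OE library at a time gave 135 to 781 calls in all, 24 to 145 higher and 98 to 636 lower; WT and CRISPR libraries were not left out. DESeq2 size factors gave 248 calls, all among the 252, and a median log2 fold change over all genes of 0.02 as before. The cause of these shifts was not tested.

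Replicate numbers are shared between the lines. Deviations of same-numbered libraries correlated at 0.277, 0.0686 and 0.00858 for replicates 1, 2 and 3, against -0.235 to 0.169 for different-numbered libraries. The value for replicate 1 was above all of the latter, and an effect shared by these libraries was not tested. The main fit did not pair the libraries. With the replicate number as a block 255 genes were called, 222 of them among the 252; PsbS2 (adjusted p = 0.0431) and HSFB2b (adjusted p = 0.0493) were then called. NRP1 was called under no alternative, with log2 fold changes of -0.32 to -0.18 over them. AGPS1 was called wherever it was tested, since the filter of 5 CPM removed it, and CPS2 was called under each alternative run. With 3 libraries per line, small differences in abundant genes and any difference in genes with a few reads are the least certain.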

Other observations

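A call can rest on 1 library. The identifier OS12G0640950, named here after its values were seen, had 4, 21 and 5 reads in OE-2 libraries, against 3946 reads in OE-4 replicate 3 and 10 and 4 reads in the other OE-4 libraries. It was among the 208 genes called lower in OE-2 (log2 fold change -7.10, edgeR adjusted p = 0.036). LEA3 (OS05G0542500), a late embryogenesis abundant gene of the drought list, showed the same on the other side without a call. It was at 4.95, 0.11 and 0.25 CPM in OE-2, against 0.35, 0.27 and 0.07 CPM in OE-4 (log2 fold change 2.82, edgeR adjusted p = 0.251), and its estimate was -0.40 without OE-2 replicate 1.

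Antioxidant enzyme genes had 9 of 13 estimates above 0 and a median log2 fold change of 0.14, with no call. APX2 (OS07G0694700), a cytosolic ascorbate peroxidase, was at 2660, 2050 and 2330 CPM in OE-2, against 2250, 1920 and 1660 CPM in OE-4 (log2 fold change 0.27, edgeR adjusted p = 0.346). In the phenylpropanoid list 7 of 11 estimates were below 0, and the phenylalanine ammonia-lyase locus OS02G0627100, listed as PAL, was at 74.9, 45.1 and 91.4 CPM in OE-2, against 111, 128 and 135 CPM in OE-4 (log2 fold change -0.82, edgeR adjusted p = 0.484).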
